A study of Mus musculus with 6 samples.

Results

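The ribosomal protein genes of satellite cells (SCs), the resident stem cells of skeletal muscle, were read from RNA sequencing of WT and *Ltf*-KO cultures. They were taken as the genes that the deposited table places in the KEGG ribosome pathway and names *Rpl* or *Rps*, leaving out names with -ps, which mark pseudogenes. This gave 82 of 55416 genes, of which 50 encode proteins of the large (60S) subunit and 32 proteins of the small (40S) subunit. The pathway held 132 rows in all, and the other rows were 43 mitochondrial ribosomal protein genes and 7 further genes. *Rps12*, a 40S gene listed at a mean of 4118 TPM, carried no entry for the pathway in the table and was therefore not among the 82. *Rpl7l1*, *Rpl10l* and *Rps4l* were not among the 82 either, and their values are given only beside those of related genes.

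Ribosomal proteins assemble on ribosomal RNA in the nucleolus into both subunits, and a subunit generally holds a single copy of most of them, so that cells make these proteins in nearly matched amounts. Their mRNAs are short, abundant and begin with an oligopyrimidine tract (the TOP motif), through which mTOR and the RNA-binding protein LARP1 control their translation. In skeletal muscle, some ribosomal proteins also have paralogs with restricted expression, such as RPL3L, which replaces RPL3 in the ribosomes of mature muscle fibers.

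SCs had been sorted (Sca1-, CD11b-, CD34+ and α7-integrin+ cells) from the hind leg muscle of WT mice and of mice with a systemic CRISPR-Cas9 deletion in the lactoferrin gene *Ltf*, made in C57/BL6N zygotes, and had been grown for 4 days in medium with serum. The mice were 8 to 10 weeks old unless specified otherwise, per the methods. Each genotype was represented by 3 libraries, the labels do not state that these came from separate mice or cultures, and p-values thus measure only the spread between these libraries. The deletion was in every cell of the animal, so effects outside SCs cannot be told apart from those within them. The question of the comparison was how gene expression in SCs differs without *Ltf*. Values were TPM (reads divided by gene length and scaled to a fixed total per library), which can be compared between genes but keeps no read depth, so the depth behind a value is unknown.

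The 6 libraries summed to between 993650 and 994356 TPM and had 12828 to 12951 genes at 1 TPM or more. *Ltf* itself was listed at 0.12, 0.02 and 0.02 TPM in WT and at 0.02, 0.03 and 0 TPM in *Ltf*-KO, too low in both to check the labels. Genes of SCs and myoblasts summed to 1884 to 1942 TPM in WT and 1916 to 1967 TPM in *Ltf*-KO, and genes of muscle differentiation to 1520 to 2015 TPM and 1557 to 2364 TPM. The lists for fibroblasts, macrophages, neutrophils, endothelial, smooth muscle, Schwann and erythroid cells each summed to at most 43.5 TPM. The macrophage list held 4.46 to 11.5 TPM in WT and 3.59 to 4.69 TPM in *Ltf*-KO, so the groups overlapped. Of its 6 genes, 4 had a mean under 1 TPM. *Lyz2* was listed at 7.22, 2.31 and 0.38 TPM in WT and at 1.11, 0.95 and 0.38 TPM in *Ltf*-KO. In such bulk RNA, fewer cells of a type and less RNA per cell cannot be told apart, and their part in the values that follow was not tested.

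The 5′ ends of the genes were searched for runs of C or T, the letters of the oligopyrimidine tract, and for common promoter motifs. RefSeq promoter sequences (GRCm38.p6, 250 bases before to 50 after the annotated start) were matched for 62 of the 82 genes. A gene counted as holding a feature if any of its annotated promoters held it. A run of at least 8 C or T that reached within 20 bases of the start was present in 32 of the 62 (51.6%). Among all 27025 genes with a promoter sequence it was present in 6399 (23.7%). Such a run need not begin at the start, and shorter tracts did not count. The share is therefore not that of genes with a TOP motif. Of motifs searched on both strands of the whole window, CCGGAAG, a site that ETS-family factors such as GABP bind, was in 26 (41.9%), against 9.93% of all these genes. CCATCTT, a core of YY1 sites, was in 9 (14.5%, against 7.28%), and the TATA box TATAAA was in 7 (11.3%, against 15.7%). These are matches of letters, given as a description, and no match says only that these letters are not in the window.

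The windows below, 50 bases before to 20 after the annotated start, show 5 genes with a run of 9 or more C or T (*Rpl7a*, *Rpl27a*, *Rpl35*, *Rpl38* and *Rps27*) and 3 paralogs (*Rps27rt*, *Rpl22l1* and *Rpl3l*) on which the results turn. They are on GRCm38.p6 at chr2:26910757-26910826 (+ strand), chr7:109519145-109519214 (+ strand), chr2:39005112-39005181 (- strand), chr11:114668530-114668599 (+ strand), chr3:90213629-90213698 (- strand), chr9:114982720-114982789 (- strand), chr3:28805458-28805527 (+ strand) and chr17:24727776-24727845 (+ strand), each written 5′ to 3′ on its own strand with the longest run of C and T in the printed window that lies within 20 bases of the start in capitals.
Rpl7a: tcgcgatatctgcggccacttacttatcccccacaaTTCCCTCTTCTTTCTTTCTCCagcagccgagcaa
Rpl27a: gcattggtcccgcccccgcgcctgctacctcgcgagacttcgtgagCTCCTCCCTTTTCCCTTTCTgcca
Rpl35: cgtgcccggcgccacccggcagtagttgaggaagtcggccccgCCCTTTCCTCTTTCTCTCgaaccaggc
Rpl38: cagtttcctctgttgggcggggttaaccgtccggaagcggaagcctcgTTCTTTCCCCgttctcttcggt
Rps27: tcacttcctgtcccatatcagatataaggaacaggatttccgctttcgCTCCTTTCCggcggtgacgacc
Rps27rt: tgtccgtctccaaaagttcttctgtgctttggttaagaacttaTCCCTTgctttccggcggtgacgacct
Rpl22l1: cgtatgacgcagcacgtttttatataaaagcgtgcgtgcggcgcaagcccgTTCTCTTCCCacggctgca
Rpl3l: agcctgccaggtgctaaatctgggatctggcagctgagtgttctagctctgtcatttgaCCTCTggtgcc

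The longest run had 21 bases in *Rpl7a*, 20 in *Rpl27a* and 18 in *Rpl35*, and 10 in *Rpl38*, which carries CCGGAAG just before it. *Rps27rt* had 6 bases within the printed window and 7 in a run that goes on past its end, and *Rpl3l* had none over 5. *Rpl22l1*, with 10 bases, also held TATAAA.

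The ribosomal protein genes made up 16.2%, 16.2% and 16.4% of all TPM in WT and 15.9%, 16.0% and 16.4% in *Ltf*-KO. Their share was 16.3% ± 0.120 (SD, n = 3) in WT and 16.1% ± 0.233 in *Ltf*-KO, a ratio of 0.987, and the groups overlapped. The 60S genes summed to 1.30, 1.28 and 1.31 times the 40S genes in WT and to 1.30, 1.31 and 1.30 times in *Ltf*-KO. Of the 100 genes with the highest mean, 45 were ribosomal protein genes, and 62 of the 82 had a mean of at least 1000 TPM.

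Among 60S genes the highest was *Rplp1*, which encodes a protein of the acidic stalk that recruits elongation factors and stood at rank 11 of all genes, with 6535, 6444 and 6603 TPM in WT and 6216, 6526 and 6500 TPM in *Ltf*-KO. *Rpl41*, which encodes a very short basic peptide, was listed at 5914, 5522 and 6054 TPM in WT and 5820, 5731 and 5817 TPM in *Ltf*-KO. *Rpl13a* had a mean of 5609 TPM, *Rpl23a*, whose protein lies at the peptide exit tunnel, 4088 TPM, and *Rplp0*, the base of the stalk, 3364 TPM. All of these overlapped between genotypes.

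Among 40S genes *Rps24* was highest, with 5029, 4955 and 4950 TPM in WT and 4949, 4849 and 4987 TPM in *Ltf*-KO. It was followed by *Rps2*, whose protein lies at the mRNA entry site, at a mean of 4922 TPM, *Rps15* at 3769 TPM, *Rps27* at 3717 TPM and *Rps18* at 3145 TPM. *Rps24* and *Rps2* differed by less than their spread over the libraries, as did *Rps15* and *Rps27*. The lowest 40S genes among the 82 were *Rps27rt* at 29.9 TPM, *Rps20* at 249 TPM and *Rps13* at 583 TPM. Next were *Rps27l* at 856 TPM and *Rps27a*, which encodes a ribosomal protein fused to ubiquitin, at 873 TPM.

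The lowest 60S genes among the 82 were *Rpl3l* at 0.032 TPM and *Rpl39l* at 0.24 TPM. Above them were *Rpl5* at 114 TPM, *Rpl12* at 143 TPM and *Rpl22l1* at 151 TPM. *Rpl5*, whose protein enters the large subunit with RPL11 and 5S rRNA and binds the p53 regulator MDM2 when assembly fails, was listed at 117.9, 108.95 and 108.7 TPM in WT and 116.6, 114.0 and 119.3 TPM in *Ltf*-KO, while *Rpl11* had a mean of 1701 TPM. The row of *Rpl5* alone does not hold all that matches its coding sequence, as described with the processed copies.

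Replicates of these genes lay close together. For the 79 genes at 100 TPM or more, the median coefficient of variation was 2.27% in WT and 2.30% in *Ltf*-KO. It was 3.46% and 3.68% for the 1312 other genes at 100 TPM or more, which were not matched to the 79 for level. Over the 80 genes tested, the levels had a Spearman correlation of 0.016 with coding length, which ran from 75 to 1257 bases, given as a description over genes of the same libraries.

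**Figure D1:**
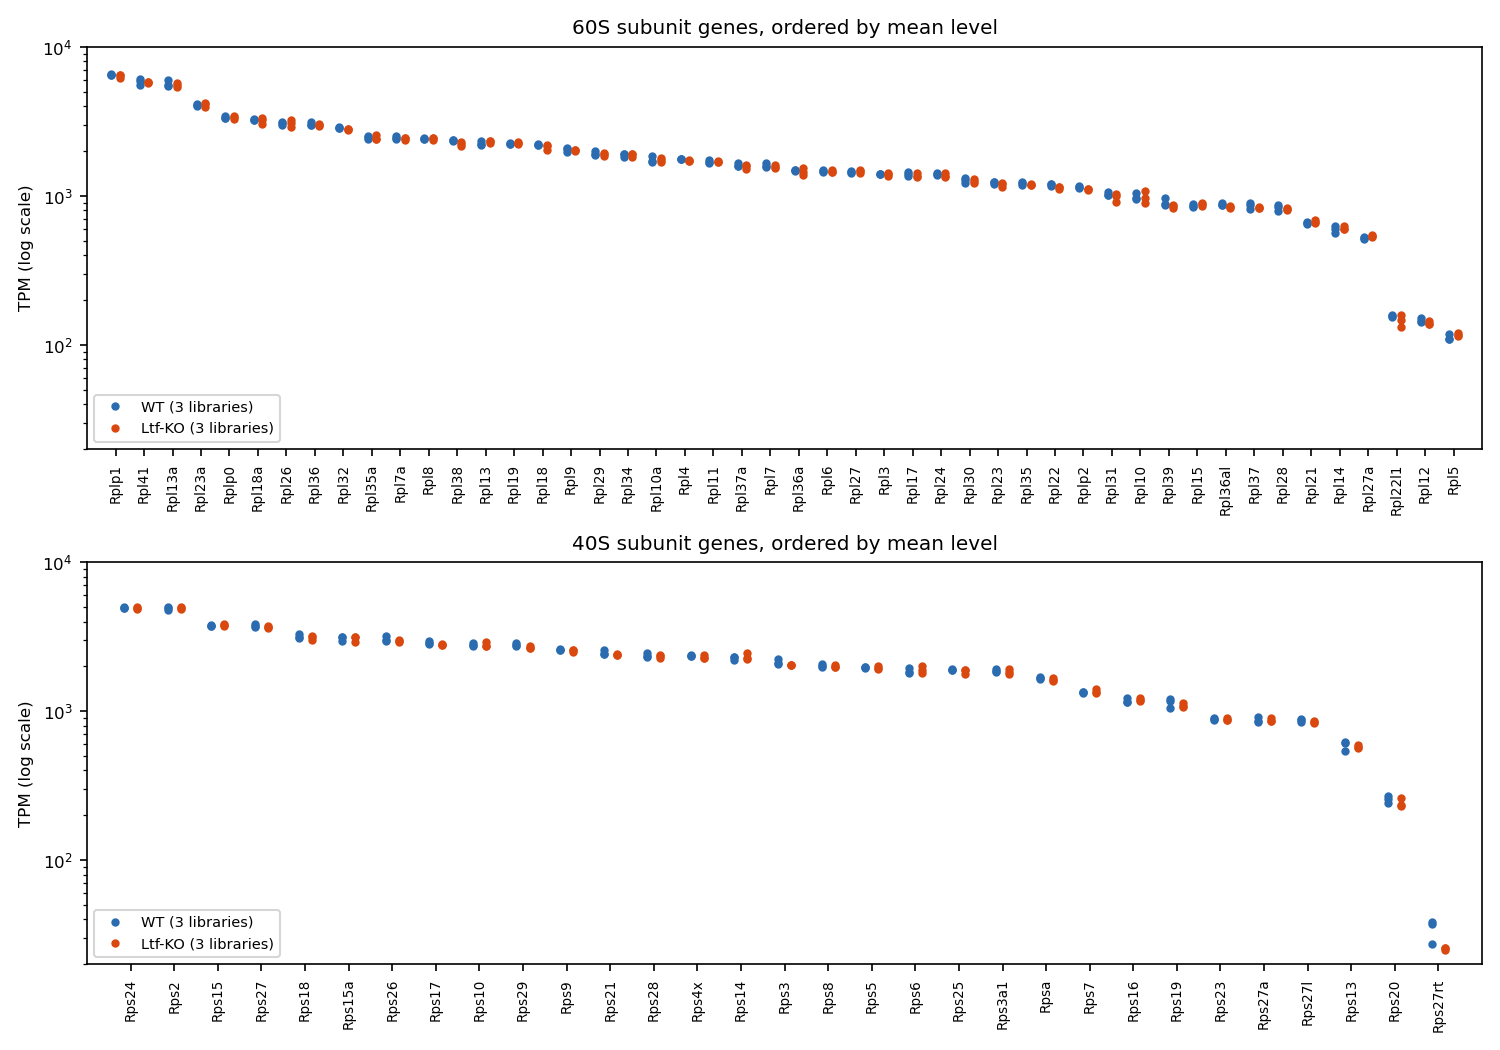
TPM on a log axis of 79 of the 80 ribosomal protein genes with a mean of 1 TPM or more, 60S genes above and 40S genes underneath, each ordered by mean, with a point for each of the 3 WT (blue) and 3 *Ltf*-KO (orange) libraries. Means run from 29.9 TPM for *Rps27rt* to 6471 TPM for *Rplp1*, and *Rpl22l1*, *Rpl12* and *Rpl5* lie apart at the low end of the 60S genes.

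Paralogs were at low or minor levels beside their parents. *Rpl3l*, the paralog of mature muscle and heart, was listed at 0, 0.11 and 0 TPM in WT and at 0, 0.08 and 0 TPM in *Ltf*-KO, whereas *Rpl3*, which lines the peptidyl transferase center, was listed at 1395, 1396 and 1399 TPM and at 1369, 1394 and 1420 TPM. Their coding sequences are identical at 896 of 1205 aligned bases (74.4%, GENCODE M21, GRCm38). *Rpl10l*, a testis paralog of *Rpl10*, was listed at 0 in all libraries except *Ltf*-KO replicate 2, with 0.08 TPM.

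*Rpl39l*, which is enriched in testis, was listed at 0.11, 0 and 0.21 TPM in WT and 0.62, 0.47 and 0 TPM in *Ltf*-KO, and its groups overlapped, with both genotypes holding a library at 0. Its parent *Rpl39*, a protein of the exit tunnel, had means of 905 TPM ± 53.3 in WT and 855 TPM ± 18.6 in *Ltf*-KO (SD, n = 3). The whole coding sequences, 153 bases each, of *Rpl39* on chromosome X and *Rpl39l* on chromosome 16 are shown with the 23 bases at which *Rpl39l* differs in capitals, the bases that tell reads of the pair apart.
Rpl39: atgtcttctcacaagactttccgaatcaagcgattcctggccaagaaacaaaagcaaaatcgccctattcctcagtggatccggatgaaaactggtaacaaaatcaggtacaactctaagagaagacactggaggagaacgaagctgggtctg
Rpl39l: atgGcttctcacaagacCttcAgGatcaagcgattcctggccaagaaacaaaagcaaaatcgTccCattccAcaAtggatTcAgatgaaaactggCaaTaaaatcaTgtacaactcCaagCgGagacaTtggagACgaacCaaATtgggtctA

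*Rpl22l1* was the 60S paralog with an intermediate level. It was listed at 159.3, 153.5 and 156.9 TPM in WT and at 158.8, 131.0 and 145.9 TPM in *Ltf*-KO, and *Rpl22*, the RNA-binding parent, at 1198, 1174 and 1196 TPM and 1153, 1106 and 1154 TPM. The *Ltf*-KO libraries were all below WT for *Rpl22* and overlapped with WT for *Rpl22l1*, which took 11.6% ± 0.0888 of the pair in WT and 11.3% ± 0.762 in *Ltf*-KO. By limma, *Rpl22l1* had a log2 fold change of −0.11 (SE 0.070, unadjusted p = 0.156, adjusted p = 0.999).

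*Rpl36al* took 37.1% ± 0.556 of its pair with *Rpl36a* in WT and 36.7% ± 1.25 in *Ltf*-KO (SD, n = 3). *Rps27l*, a p53-responsive relative of *Rps27*, took 18.8% ± 0.233 and 18.7% ± 0.387. *Rpl7l1*, which acts in assembly of the large subunit, took 7.42% and 7.50% of its sum with *Rpl7*, and *Rps4l* took 1.15% of its sum with *Rps4x* in each genotype. For each of these 4 shares, the libraries of both genotypes overlapped. The row of *Rpl36a* leaves out its processed copies, which held 59.5% of the sum of gene and copies. The share of *Rpl36al* thus depends on how reads of *Rpl36a* and its copies were assigned.

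*Rps27rt* is a further relative, on chromosome 9, whose coding sequence is identical to that of *Rps27* on chromosome 3 at all 252 bases. The first 90 coding bases are shown beside those of *Rps27l*, in which capitals mark the 24 bases that differ from *Rps27*. Reads within the coding sequence therefore cannot be told apart between *Rps27* and *Rps27rt*, and the level of *Rps27rt* depends on how such reads were assigned.
Rps27: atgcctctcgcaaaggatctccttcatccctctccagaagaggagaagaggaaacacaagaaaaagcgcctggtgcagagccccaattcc
Rps27rt: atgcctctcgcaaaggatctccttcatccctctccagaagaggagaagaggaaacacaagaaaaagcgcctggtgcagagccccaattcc
Rps27l: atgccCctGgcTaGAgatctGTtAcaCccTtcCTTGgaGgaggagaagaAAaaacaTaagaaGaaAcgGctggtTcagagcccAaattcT

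**Figure D2:**
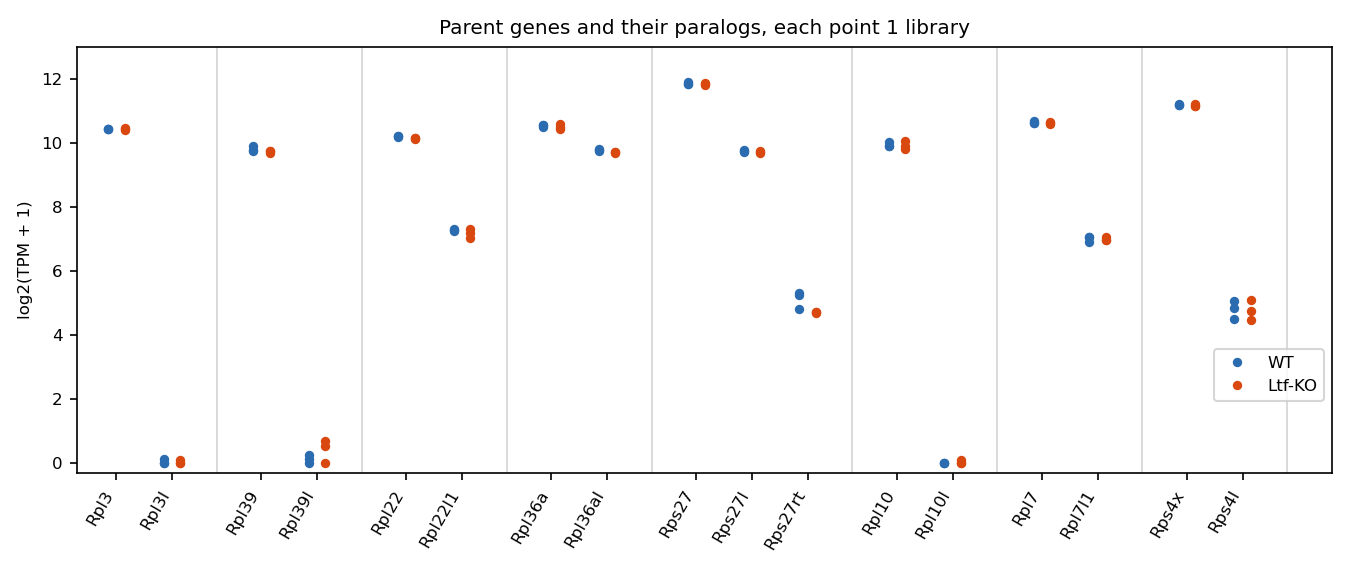
Levels of parent genes and their paralogs on the log2(TPM + 1) scale, each point being a WT (blue) or *Ltf*-KO (orange) library and grey lines separating the families. *Rpl3l*, *Rpl39l* and *Rpl10l* sit near 0, and *Rps27rt* lies far under *Rps27* in every library.

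*Ltf*-KO was compared with WT with limma on log2(TPM + 1), over the 12956 genes whose mean reached 1 TPM, with Benjamini-Hochberg adjustment. The pseudocount shrinks the fold change of genes near 1 TPM. Of the ribosomal protein genes 80 were tested, all except *Rpl3l* and *Rpl39l*. At an adjusted p under 0.05, 0 of the 80 passed, as did 0% of all tested genes, and the lowest adjusted p of the 80 was 0.999. At an unadjusted p under 0.05 there were 2 of 80, both lower in *Ltf*-KO, against 3.78% of all tested genes (1.78% lower and 2.01% higher).

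Those were *Rps27rt* and *Rpl38*. *Rps27rt* was listed at 38.6, 37.5 and 27.3 TPM in WT and at 25.7, 24.8 and 25.6 TPM in *Ltf*-KO, so that WT replicate 3 lay close to the *Ltf*-KO libraries and the groups did not overlap. Its log2 fold change was −0.41 (SE 0.13, limma unadjusted p = 0.0158, adjusted p = 0.999), and its share of the sum with *Rps27* was 0.907% ± 0.154 in WT and 0.685% ± 0.0165 in *Ltf*-KO. *Rps27*, with the same coding sequence, was listed at 3711, 3866 and 3698 TPM in WT and at 3622, 3658 and 3748 TPM in *Ltf*-KO. The unadjusted p of *Rps27rt* was no longer under 0.05 when WT replicate 1 (log2 fold change −0.33), WT replicate 2 (−0.35) or *Ltf*-KO replicate 2 (−0.40) was left out.

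*Rpl38*, a 60S gene known for its part in the translation of *Hox* mRNAs in the embryo, was listed at 2323, 2356 and 2389 TPM in WT and at 2223, 2294 and 2166 TPM in *Ltf*-KO. All WT libraries were above all *Ltf*-KO libraries, with a log2 fold change of −0.081 (SE 0.029, limma unadjusted p = 0.0302, adjusted p = 0.999). Leaving out WT replicate 2 (−0.081), WT replicate 3 (−0.071), *Ltf*-KO replicate 1 (−0.080) or *Ltf*-KO replicate 3 (−0.061) took its unadjusted p over 0.05. Here, as for *Rps27rt*, a fit with a library left out is less precise, so p can rise even where the fold change stays.

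The libraries of both genotypes did not overlap for 12 of the 80 genes (15%), against 8.46% of all tested genes. All 12 were lower in *Ltf*-KO, against 3.73% of all tested genes, and 0 were higher, against 4.73%. They included the 60S genes *Rpl38*, *Rplp2*, *Rpl22*, *Rpl36al*, *Rpl32*, *Rpl18* and *Rpl4* and the 40S genes *Rps27rt*, *Rps3*, *Rps29* and *Rps21*. *Rps3*, whose protein lines the mRNA entry site and also has a role in DNA repair, was listed at 2075, 2121 and 2236 TPM in WT and at 2034, 2034 and 2033 TPM in *Ltf*-KO. *Rplp2*, the partner of *Rplp1* in the stalk, was listed at 1131, 1163 and 1154 TPM in WT and at 1112, 1095 and 1109 TPM in *Ltf*-KO. The *Ltf*-KO mean differed from the WT mean by −5.14% for *Rps3* and −3.84% for *Rplp2*.

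More of the genes had a lower than a higher mean in *Ltf*-KO: 63 of 80 (78.75%) had a log2 fold change under 0, against 44.3% of all tested genes and 656 of the 1312 other genes at 100 TPM or more. With quantile normalization 50 of the 80 were lower, and with median-of-ratios scaling 67. The sizes were small. The median log2 fold change was −0.023, with −0.020 for 60S and −0.026 for 40S genes, against 0.011 for all tested genes, and single genes ran from −0.41 (*Rps27rt*) to 0.061 (*Rpl5*). For 74 of the 80 genes the means of both genotypes lay within 5% of each other, and for all except *Rps27rt* within 10%. The 95% interval of the log2 fold change had a median half-width of 0.077, about 5.49%, and lay within a 1.2-fold change in either direction for 78 of 80 genes, the exceptions being *Rps27rt* and *Rpl22l1*.

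**Figure D3:**
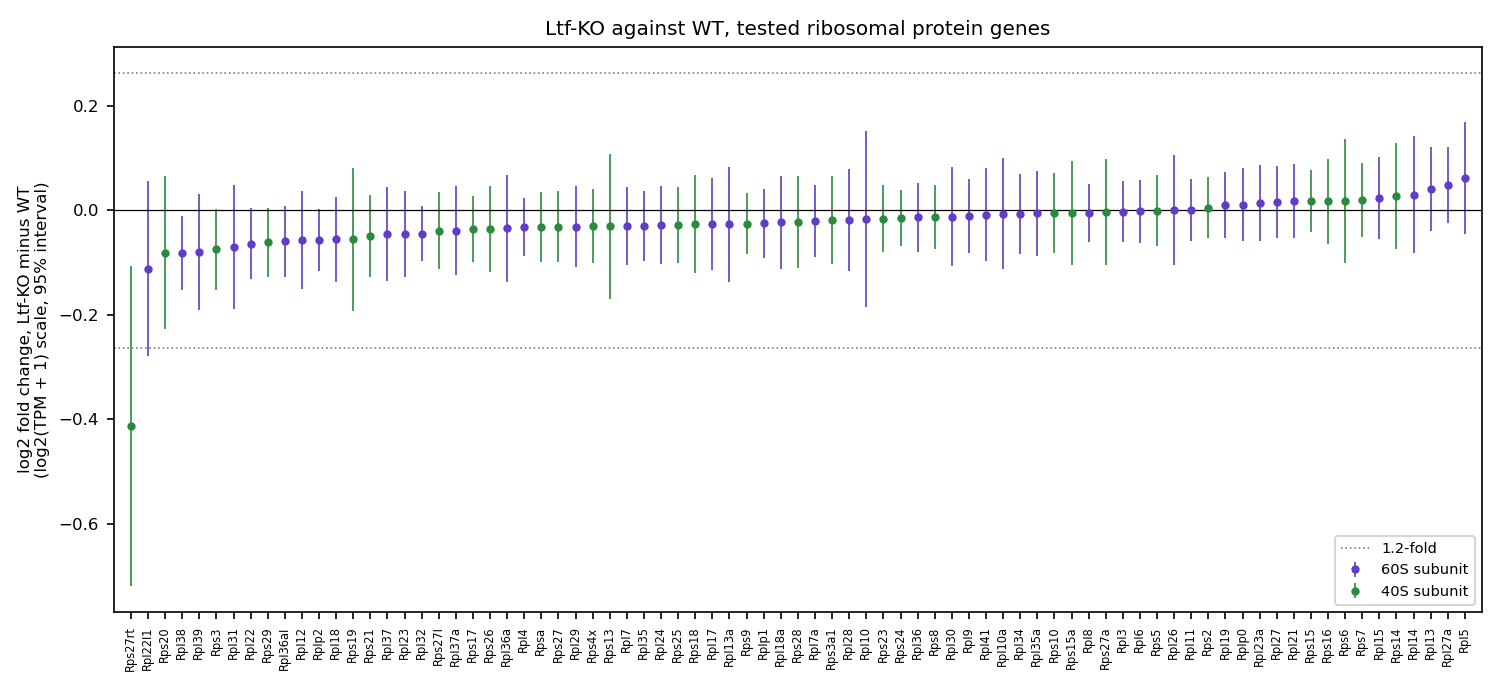
Log2 fold change (*Ltf*-KO minus WT, log2(TPM + 1) scale) of 79 of the 80 tested ribosomal protein genes with 95% intervals from limma (lines), in order of size, 60S genes in purple and 40S genes in green, and dotted lines at a 1.2-fold change. Points under 0 number 62, and the intervals of *Rps27rt* and *Rpl38* leave out 0 before adjustment.

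Genes often followed in studies of ribosome synthesis had small differences. *Rps19*, the gene first found mutated in Diamond-Blackfan anemia, was listed at 1049.6, 1167 and 1209 TPM in WT and at 1089, 1066 and 1137 TPM in *Ltf*-KO, with a log2 fold change of −0.056 and an adjusted p of 0.999 by limma. *Rps6*, the substrate of S6 kinase, had means of 1869 TPM ± 76.3 and 1893 TPM ± 104 (SD, n = 3), and *Rpl11* had 1701 TPM ± 32.0 and 1701 TPM ± 11.3. *Rplp0*, often used as a reference gene, had 3352 TPM ± 68.1 and 3376 TPM ± 82.6, and *Rpsa*, which is also known as the laminin receptor, had a mean of 1648 TPM over all libraries. For each of these the libraries of the genotypes overlapped.

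For the median gene, the lower level in *Ltf*-KO came from 2 of its 3 libraries, whereas the 12 genes without overlap were lower than WT in all 3. Each gene was set against its own mean over the 6 libraries. The median deviation of the 80 genes was 0.0055, 0.0032 and 0.019 log2 in WT and −0.023, −0.022 and 0.015 log2 in *Ltf*-KO. In *Ltf*-KO replicates 1 and 2, 61 and 60 of the 80 genes were under their own mean, whereas in *Ltf*-KO replicate 3 it was 27, and in the WT libraries 34, 32 and 26. *Ltf*-KO replicate 3 was therefore like WT replicate 3 in this respect. Without *Ltf*-KO replicate 3 the median log2 fold change was −0.033 and 69 genes were lower, and without *Ltf*-KO replicate 1 it was −0.013 and 51 genes were lower. The median deviation of all tested genes lay between −0.014 (WT replicate 1) and 0.0086 (*Ltf*-KO replicate 2), and transcripts encoded in mitochondria took 6.13% to 6.69% of TPM. Median-of-ratios scaling gave a median log2 fold change of −0.033 with 67 genes lower, and quantile normalization gave −0.016 with 50. Beyond these fits, the part of such shifts of scale in the difference was not tested.

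**Figure D4:**
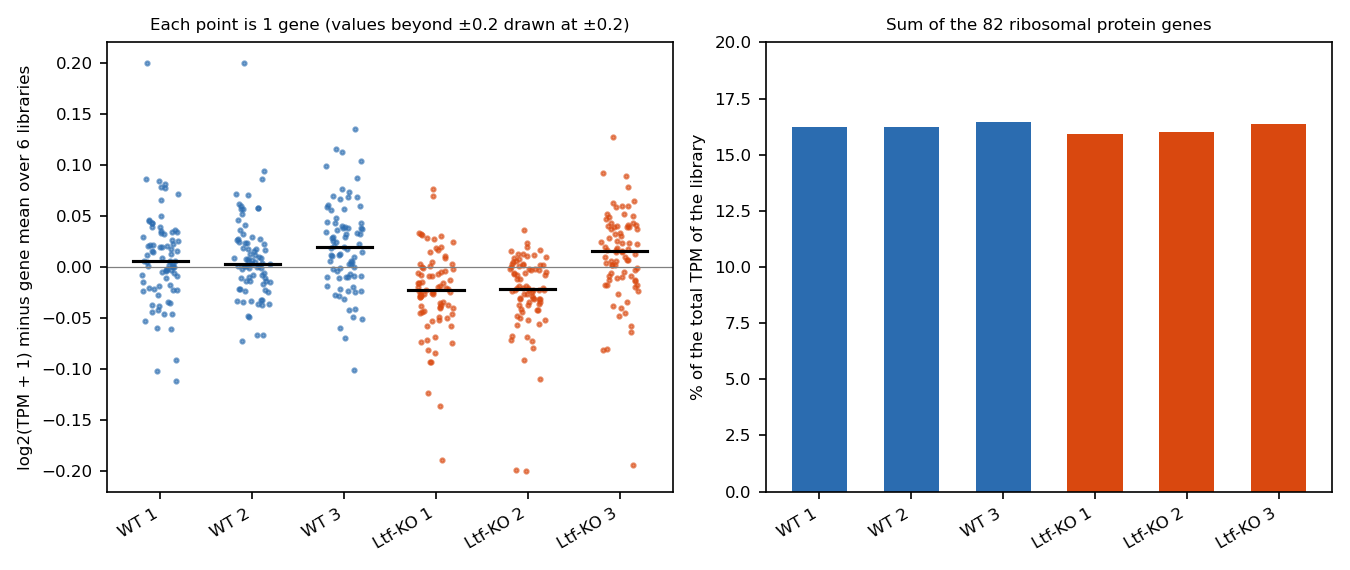
Left, deviation of each of the 80 tested ribosomal protein genes (points) from its own mean over the 6 libraries on the log2(TPM + 1) scale, with the median as a black line, and right, the share of the 82 genes in the total TPM of each library (bars, percent). The median deviation sits at −0.023 and −0.022 in *Ltf*-KO replicates 1 and 2 and between 0.0032 and 0.019 in the other 4 libraries.

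Many ribosomal protein genes have processed copies in the mouse genome, formed from their mRNA and lacking introns, and some were listed at high levels. GENCODE M21 transcripts were aligned to the coding sequence of each gene, and rows with at least 90% identity over at least 80% of it were taken as copies. There were 960 such rows, 945 of a pseudogene type. Of them 85 were at 1 TPM or more, 22 at 100 TPM or more, and 22 of those at 1 TPM or more were identical to their gene over the aligned stretch. Copies were found for 75 of the 82 genes, summed to 31639 to 33572 TPM a library and made up 16.4% to 17.2% of the sum of genes and copies. Each copy was counted for only 1 gene, so 9 copies that match *Rps27* and *Rps27rt* equally were counted for *Rps27rt* and 0 for *Rps27*. How reads shared between a gene and its copies were assigned is not given in the sources used here, so the split between them is uncertain.

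For 20 genes, 13 of 60S and 7 of 40S, copies held at least 10% of the joint level, and for 11 they exceeded the gene itself. *Rpl12*, which binds at the stalk base, was listed at 143 TPM and its copy *Gm10275*, identical over the aligned stretch, at 3279 TPM, 95.8% of the sum being in copies. *Rpl5* was listed at 114 TPM and *Gm15500* at 1526 TPM (93.0% in copies), and *Rpl27a* at 528 TPM and *Gm7536* at 3291 TPM (87.4%). Among 40S genes the share was 75.6% for *Rps23*, with *Rps23-ps1* at 2726 TPM, 70.9% for *Rps20* and 68.7% for *Rps28*, with *Gm10443* at 5172 TPM. Several of the genes named above as lowest, *Rpl5*, *Rpl12*, *Rps20* and *Rps13*, were thus genes with such copies.

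Adding the copies narrowed the range of levels when paralogs were set aside. Over the 76 tested genes other than the paralogs *Rpl22l1*, *Rpl36al*, *Rps27l* and *Rps27rt*, levels ran from 114 to 6471 TPM as listed, 56.6-fold, with an SD of 1.06 log2. With copies added they ran from 855 to 7536 TPM, 8.82-fold, with an SD of 0.69 log2, and the median went from 1879.9 to 2291 TPM. Over all 80 tested genes the SD went from 1.29 to 1.08 log2, but the range widened from 216-fold to 252-fold, as the level of *Rps27rt* stayed at 29.9 TPM. *Rps13* had a coefficient of variation within genotypes of 5.68% alone and 0.723% with its copies, and the sum had the lower coefficient in 12 of the 20 families. The opposite was seen for *Rps29*, with 2.03% alone and 8.26% with *Gm14303*, which was listed at 1242, 2058 and 1216 TPM in WT and at 1539.5, 1758 and 2143 TPM in *Ltf*-KO.

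The comparison was repeated with copies summed into their gene, while *Rps27* and *Rps27rt* were kept apart despite their identical coding sequences. Again 0 of 80 genes passed at an adjusted p under 0.05 by limma, 3 passed unadjusted (against 3.81% of the 12871 rows tested in that fit), 66 were lower in *Ltf*-KO (against 44.2%) and the median log2 fold change was −0.019. The third gene was *Rps28*, whose sum was 7737, 7979 and 7541 TPM in WT and 7162, 7371 and 7428 TPM in *Ltf*-KO, with no overlap and a log2 fold change of −0.082 (unadjusted p = 0.0263, limma adjusted p = 0.9995). In 11 of the 20 families the sign of the log2 fold change differed between the gene and the sum, *Rpl5* for example going from 0.061 to −0.010.

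**Figure D5:**
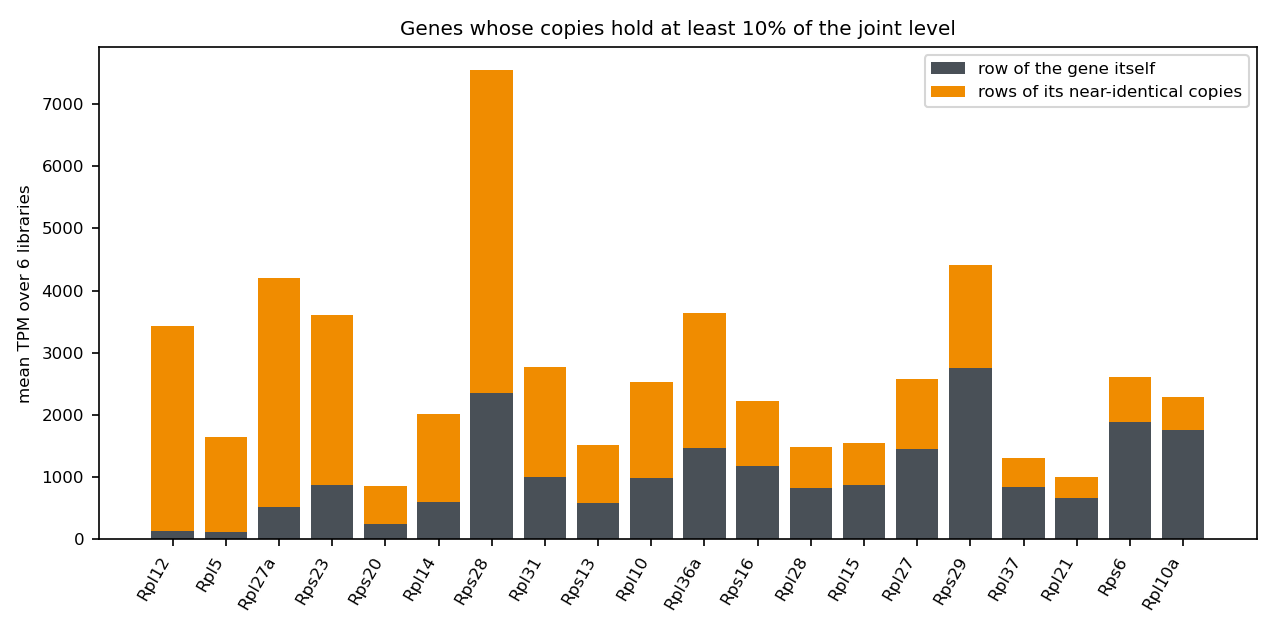
Mean TPM over the 6 libraries (stacked bars) of each of the 20 ribosomal protein genes with at least 10% of the joint level in copies, split into the gene and its copies. The copies exceed the gene for 11 of the 20, most of all for *Rpl12*, with 95.8%.

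Other genes of translation and ribosome synthesis gave 0 calls at an adjusted p under 0.05 by limma. Their counts at an unadjusted p under 0.05 are to be read against the 3.78% of all tested genes. All 43 mitochondrial ribosomal protein genes were tested, with 1 lower and 1 higher at an unadjusted p under 0.05 and a median log2 fold change of −0.0094. *Mrpl2* was lower (log2 fold change −0.17) and *Mrpl34* higher (0.089), both with an adjusted p of 0.999, and their unadjusted calls were lost in 5 and 7 of 14 alternatives. Of 17 tested elongation factors and other TOP mRNAs 0 passed even unadjusted, with a median of −0.0049. *Eef1a1*, which brings aminoacyl-tRNA to the ribosome, had means of 9068 TPM ± 347 in WT and 9187 TPM ± 494 in *Ltf*-KO (SD, n = 3), and *Eef2*, the translocase, 1728 and 1735 TPM.

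*Fau*, which encodes S30 fused to a ubiquitin-like protein, had means of 1402 TPM ± 31.1 in WT and 1376 TPM ± 36.4 in *Ltf*-KO (SD, n = 3), and *Rack1*, the scaffold protein of the 40S head, 1419 and 1421 TPM. The libraries of both genotypes overlapped for each.

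The KEGG list of ribosome biogenesis had 71 of 77 genes tested, a median log2 fold change of −0.022, and 2 genes lower and 1 higher at an unadjusted p under 0.05. Lower were *Xrn2* (−0.19), a nuclear exonuclease that trims pre-rRNA, and *Wdr3* (−0.11), and higher was *Utp18* (0.12), the last 2 being parts of the small subunit processome. Of 22 rRNA processing factors, with a median of −0.019, *Ebna1bp2* (−0.14), which acts in assembly of the large subunit, was lower at that p. Of 14 genes of RNA polymerase I and its factors, with a median of 0.012, *Cd3eap* (0.15), a subunit, was higher. All of them had an adjusted p of 0.999 by limma, and each lost its unadjusted call in 5 to 9 of 14 alternatives.

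Among 15 tested regulators of ribosome synthesis the median log2 fold change was −0.0081, with single genes from −0.26 to 0.47. At a limma unadjusted p under 0.05, 1 was lower and 1 higher. The list mixes activators and repressors, so its median gives no direction for ribosome synthesis. *Maf1*, a repressor of RNA polymerase III, was listed at 77.1, 70.4 and 79.6 TPM in WT and at 90.5, 83.0 and 88.5 TPM in *Ltf*-KO (log2 fold change 0.21, unadjusted p = 0.0120, limma adjusted p = 0.999). *Mtor*, the kinase upstream of TOP mRNA translation, was listed at 18.0, 22.5 and 19.3 TPM in WT and at 18.0, 14.6 and 16.8 TPM in *Ltf*-KO (−0.26, unadjusted p = 0.0485), its groups overlapped, and the call was lost in 7 of 14 alternatives, whereas that of *Maf1* was lost in none. *Myc*, an activator of ribosome synthesis, had means of 98.7 and 95.2 TPM and *Larp1*, which binds TOP mRNAs, 61.4 and 61.1 TPM. *Npm1*, a nucleolar chaperone, was listed at 2319, 2303 and 2322 TPM in WT and at 2217, 2259.6 and 2216 TPM in *Ltf*-KO, lower in all 3 *Ltf*-KO libraries (−0.053, unadjusted p = 0.0504). Of 4 genes of the p53 response to failed ribosome assembly (median −0.020) and 16 assembly factors (median −0.0081), 0 passed unadjusted.

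Introns of ribosomal protein genes often hold small nucleolar RNA (snoRNA) genes, whose RNAs guide modification of rRNA. In GENCODE M21, 29 of the 82 held 55 snoRNA genes, 36.25% of those tested, against 200 of 11483 other tested protein-coding genes (1.74%). The 82 genes lay on 19 chromosomes, with 14 on chromosome 7 and 4 on X.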

How the data were processed

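RNA was sequenced from SCs after 4 days of growth, with 3 WT and 3 *Ltf*-KO libraries, grouped from their labels. The authors deposited TPM values of 55416 genes, normalized by the manufacturer's protocol, and per the labels the genome build was GRCm39. The aligner and counting tool are not given in the sources used here. TPM keeps no depth, so count tests were not run. The pseudocount was 1, and genes whose mean reached 1 TPM were fitted with limma 3.58.1 in R 4.3.3 (lmFit, eBayes with a trend on the mean, two-sided, Benjamini-Hochberg adjustment over all tested genes, threshold 0.05). A trial of the fit on simulated data used independent noise and changes larger than those of the ribosomal protein genes. It does not bear on changes as small as these. Copies were found with BLAST+ 2.17.0 in GENCODE M21 (GRCm38), at 90% identity over 80% of the coding sequence, a row of no pseudogene type also needing 50% of its transcript covered. The ribosomal protein genes and the lists were chosen with earlier results of these data known. Named were the 5 highest and 5 lowest genes of each subunit, genes at an unadjusted p under 0.05, the paralogs with their parents, a few genes known from other work and at most 3 genes of each companion list. *Rps3*, the other genes whose groups did not overlap, and the copies were named after their values were seen. Alternatives were a pseudocount of 0.1, no filter, a mean of at least 10 TPM, the replicate number as a block, median-of-ratios scaling, quantile normalization, limma without a trend and each library left out. Summing the copies was added after seeing the data. Protein sequences were not used here, and 2 genes are not named or drawn.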

Additional observations from a re-analysis of the deposited data

How the results depend on the processing

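The count of ribosomal protein genes at an adjusted p under 0.05 was 0 under all 14 alternatives. With all libraries kept, 63 lower genes became 50 (quantile normalization) to 67 (median-of-ratios scaling), with a median log2 fold change from −0.033 to −0.016, and with a library left out 51 to 69, with −0.033 to −0.013. The count at an unadjusted p under 0.05, 2 here, was 1 with no filter, 1 with the replicate block, 1 without a trend and 6 with median-of-ratios scaling, which also held *Rps3*, *Rplp2*, *Rps29* and *Rpl36al*. Leaving out each library gave 1 to 5, with 5 without WT replicate 1 and 1 without WT replicate 2, WT replicate 3, *Ltf*-KO replicate 2 or *Ltf*-KO replicate 3. *Rps27rt* was past an unadjusted p of 0.05 in all but the fits without WT replicate 1, WT replicate 2 or *Ltf*-KO replicate 2, with log2 fold changes from −0.57 to −0.33 and adjusted p of 0.161 or more. Summing copies could not test *Rps27rt*, as its copies were listed at 0 TPM and *Rps27* was kept apart, so its values stayed the same. *Rpl38* lost that call under the 4 settings of no filter, the block, quantile normalization and no trend, and when WT replicate 2, WT replicate 3, *Ltf*-KO replicate 1 or *Ltf*-KO replicate 3 was left out. Over all tested genes, 490 at an unadjusted p under 0.05 became 890 with no filter and 281 at a mean of at least 10 TPM. The adjusted count, 0 here, was 0 to 6 with a library left out (6 without WT replicate 2, 5 without *Ltf*-KO replicate 1, 4 without *Ltf*-KO replicate 3, 2 without *Ltf*-KO replicate 2, and with WT replicate 3 left out it was 1). The median of the mitochondrial ribosomal protein genes was −0.020 with median-of-ratios scaling and −0.021 to −0.0022 with a library left out. The unadjusted calls of the companion lists moved too. With a library left out, biogenesis had 0 to 3 (0 without WT replicate 2 or *Ltf*-KO replicate 1), the mitochondrial list 0 to 3 (0 without WT replicate 2), regulators 1 to 4 (4 without *Ltf*-KO replicate 1), RNA polymerase I 0 to 1 (0 without WT replicate 1, *Ltf*-KO replicate 2 or *Ltf*-KO replicate 3) and rRNA processing 0 to 1 (1 only without *Ltf*-KO replicate 2). With the replicate block, rRNA processing and RNA polymerase I had 0 and biogenesis 1. Same-numbered libraries had correlations of their deviations of −0.041, −0.058 and −0.088, and the sources used here do not state whether they were handled together. The block left 380 genes at an unadjusted p under 0.05. Directions turned for small changes. Summing copies gave *Rpl36a* 0.033, *Rpl5* −0.010 and *Rps6* −0.017. Median-of-ratios scaling gave *Rpl11* −0.0099 and *Rplp0* −2.44e-06, and quantile normalization gave *Rplp0* −0.0062. Leaving out a library gave *Rpl3* −0.016 to 0.010, *Rpl36a* −0.075 to 0.0025, *Rpl11* −0.011 to 0.015, *Rps6* −0.023 to 0.056, *Rplp0* −0.0073 to 0.028 and *Larp1* −0.040 to 0.011, and list medians of −0.040 to 0.023 for the p53 response, −0.012 to 0.031 for RNA polymerase I, −0.035 to 0.0090 for regulators, −0.011 to 0.0064 for assembly and −0.014 to 0.0024 for elongation factors. Quantile normalization turned the RNA polymerase I (−0.0011) and elongation factor (0.0030) medians, and no filter that of regulators (0.0078). The cause of these changes was not tested. Without read counts the counting error of low genes such as *Rps27rt* and *Rpl39l* is unknown, and 3 libraries a genotype limit the precision.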
